A study of Cladosporium europaeum with 50 samples.

Results

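Purine breakdown is represented by 6 genes of the filamentous fungus Cladosporium europaeum, strain F32, which came from soil polluted with polychlorinated biphenyls (PCB). They are annotated as adenine deaminase, uricase, 5-hydroxyisourate hydrolase, an oxo-4-hydroxy-4-carboxy-5-ureidoimidazoline (OHCU) decarboxylase domain protein, allantoicase and a ureidoglycine aminohydrolase cupin domain protein. The 6 are part of 920 genes that the authors listed as changed in at least 1 comparison, and they were picked by annotation from those listed genes, so their log2 fold changes and adjusted p-values are a description and were not tested again. All 6 were found. The annotation fits the chosen name for 4 of them by enzyme, and for the OHCU decarboxylase and the ureidoglycine aminohydrolase by a domain alone.

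The mycelium was grown in liquid mineral medium with 5 g/L glucose, and every group, the controls included, had this glucose. A group had either no PCB or 6 mg/L of PCB52, PCB101, PCB153 or PCB180 (a tetra-, penta-, hexa- and heptachlorobiphenyl), and polyadenylated RNA was sequenced after 24 h or 96 h. There were 50 samples in 10 groups of 5 replicates. Nothing in the labels ties the replicates to separate cultures, so the spread behind the deposited p-values is that between the sequenced samples, which may be technical. All samples are of a single fungal strain, with no cell type or tissue to check beyond the mycelium that the labels name. The values used are the authors' own comparisons, which set a congener against the control at the same time, and 1 direct comparison of PCB180 with PCB153. For a congener against control, "listed" below means that a gene had both an adjusted p under 0.05 and a log2 fold change of 1 or more in size in the authors' deposited table, and "rose" or "fell" is written of listed genes only. No value per sample was used, so the depth of each library is unknown and the levels of a gene in the single groups cannot be given.

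Fungi can use purines as a source of nitrogen. Adenine is deaminated to hypoxanthine, which xanthine dehydrogenase oxidises to urate. Uricase, a peroxisomal enzyme in many organisms, oxidises urate to 5-hydroxyisourate and releases hydrogen peroxide. The hydrolase and the decarboxylase then convert 5-hydroxyisourate by way of OHCU into allantoin. Allantoinase opens allantoin to allantoate, and allantoicase splits allantoate into urea and ureidoglycolate. Ureidoglycine aminohydrolase is known from plants and bacteria, where it takes ammonia off ureidoglycine on another branch from allantoate. In Aspergillus nidulans, genes of the route are induced by urate and repressed by ammonium.

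After 96 h of PCB153, 5 of the 6 genes rose and none fell, and the missing one was ureidoglycine aminohydrolase. The 5 genes cover the entry of adenine, the 3 steps from urate to allantoin and the splitting of allantoate. Their log2 fold changes ran from 1.54 to 2.37 with a median of 1.83, beside a median of 1.68 over all 198 genes that rose under PCB153, in the authors' deposited table. Of 10874 genes tested for PCB153 at 96 h, 1.82% were listed as risen and 0.579% as fallen. This comparison chose the members, so nothing is read from the count against that share.

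Adenine deaminase (ptg000002l.379) turns adenine into hypoxanthine and so feeds the route. In the authors' deposited table it rose under PCB153 with a log2 fold change of 2.11, a standard error of 0.55 and an adjusted p of 0.0108. This is a 4.32-fold rise with a 95% interval of 2.04 to 9.14, from the deposited standard error. That standard error was the widest of the 5, so the second largest rise among them was also the least precise on the log2 scale.

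Uricase (ptg000009l.79), which oxidises urate, had the largest rise of the 6 genes. In the authors' deposited table its log2 fold change under PCB153 was 2.37 ± 0.48 (here and below, the standard error) with adjusted p = 0.000318, a 5.16-fold rise with a 95% interval of 2.70 to 9.89. It stood at place 24 of 198 by size of rise and at place 24 of 261 by adjusted p. Its mean normalized count over all samples was 11677, which put it at place 12 of the 920 listed genes in the authors' deposited table. This count is not divided by gene length, so it gives the reads behind the value and not a level to compare between genes.

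The hydrolase and the decarboxylase act one after the other on the product of uricase. 5-Hydroxyisourate hydrolase (ptg000027l.529), which opens the first product, had a log2 fold change of 1.54 ± 0.39 under PCB153 (adjusted p = 0.00717 in the authors' deposited table). The OHCU decarboxylase domain protein (ptg000016l.128), of the family that completes allantoin, had one of 1.74 ± 0.50 (adjusted p = 0.0237 in the authors' deposited table). In linear terms the hydrolase rose 2.92-fold (95% interval 1.73 to 4.93) and the decarboxylase 3.35-fold (1.71 to 6.58). The lower bound of both intervals was under a log2 fold change of 1, at 0.79 for the hydrolase and 0.77 for the decarboxylase. Their mean normalized counts were 868 and 336 in the authors' deposited table.

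Allantoicase (ptg000012l.230), which releases urea and ureidoglycolate from allantoate, had a log2 fold change of 1.83 ± 0.42 under PCB153 (adjusted p = 0.00298 in the authors' deposited table). This was a 3.55-fold rise with a 95% interval of 1.997 to 6.30. Its mean normalized count of 2853 was the second highest of the 6 in the authors' deposited table. The 95% intervals of all 5 genes overlapped each other, and an order of their rises was not tested.

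**Figure D1:**
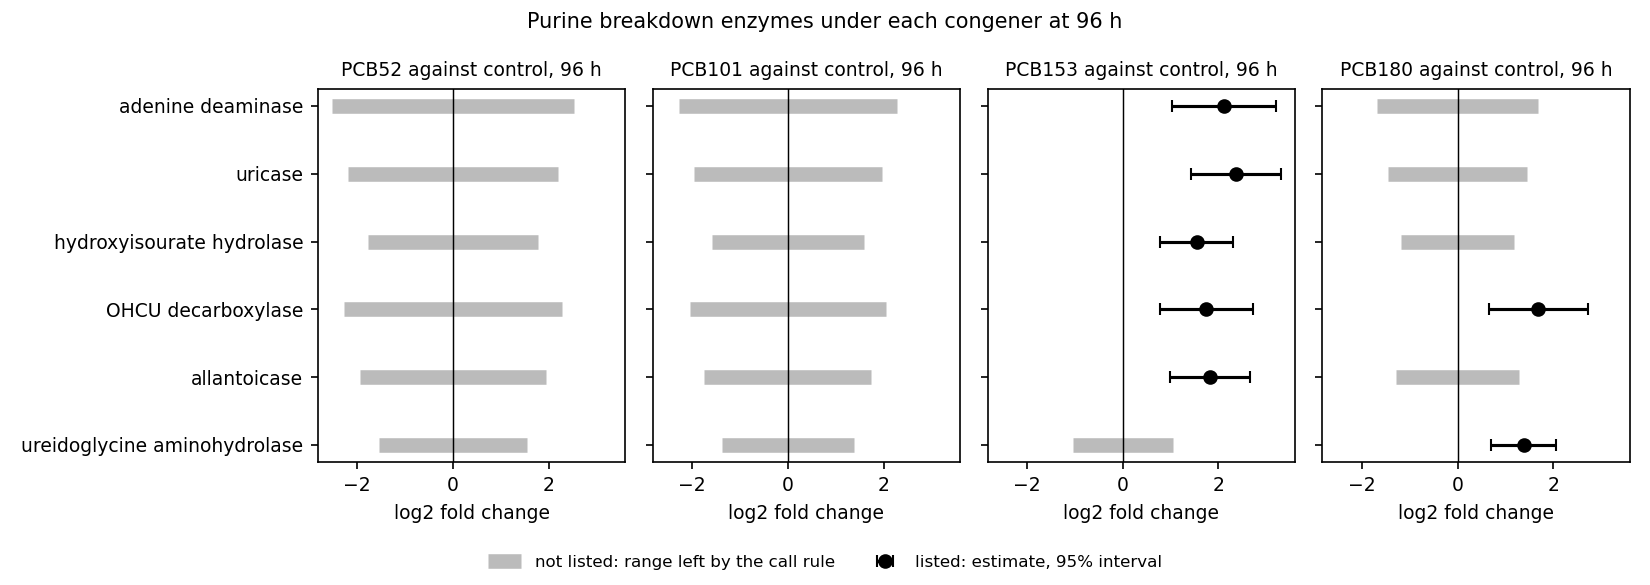
Log2 fold change (horizontal axis) of the 6 enzymes, in the order of the route, for each congener against the control at 96 h. Points with bars are listed estimates with their 95% interval, and grey bars span the values that the call rule leaves for a gene that was not listed; the 5 points under PCB153 lie between 1.54 and 2.37, and 2 genes have points under PCB180.

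After 96 h of PCB180, 2 of the 6 genes rose and none fell. Their median log2 fold change was 1.54, beside 1.59 over all 519 genes that rose under PCB180, in the authors' deposited table. Of 11313 genes tested for PCB180 at 96 h, 4.59% were listed as risen and 2.67% as fallen, and as this comparison also chose members nothing is read from the count. The OHCU decarboxylase domain protein was the 1 gene listed for both congeners, and its log2 fold change under PCB180 was 1.69 ± 0.52 (adjusted p = 0.0211 in the authors' deposited table). Its fold rise was 3.23 (95% interval 1.59 to 6.58) under PCB180 and 3.35 under PCB153. The estimate for PCB180 minus that for PCB153 was -0.05 on the log2 scale, smaller in size than either standard error, and they share the same control samples.

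The ureidoglycine aminohydrolase cupin domain protein (ptg000017l.123) was the other gene listed for PCB180. In the authors' deposited table its log2 fold change was 1.38 ± 0.35 with adjusted p = 0.00318, a 2.61-fold rise with a 95% interval of 1.63 to 4.17. This was the smallest listed log2 fold change of the 6 genes, and the highest adjusted p of any was the 0.0237 of the decarboxylase under PCB153. Its mean normalized count of 39.3 was the lowest of the 6, with 13.6% of the 920 listed genes below it, in the authors' deposited table. No value of a gene just outside the thresholds was used here.

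For a gene that is not listed, the call rule still limits the size that its log2 fold change can have had. The adjusted p-values give the number of genes tested and a minimum for the number past the threshold, and so the score (log2 fold change over standard error) that an unlisted gene cannot have exceeded. The standard errors of the missing comparisons were taken from a listed comparison of the same gene. In 171 genes listed for both congeners, the standard error under PCB180 was 1.03 to 1.08 times that under PCB153, with a median of 1.05. For 9 genes listed under both PCB101 and PCB153 the ratio ran from 0.9997 to 1.003, and for PCB52 it was 0.9998 in 1 gene. The sources used here do not state whether all 5 libraries of a group entered each deposited comparison. The limits below take the end of each ratio range that gives the highest standard error. For ureidoglycine aminohydrolase, listed for PCB180 alone, this is the lowest ratio of PCB180 to PCB153. All limits hold only if the gene received an adjusted p-value at all.

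Uricase under PCB180 can have had an absolute log2 fold change of at most 1.45, below its 2.37 under PCB153. The same limit was 1.67 for adenine deaminase, 1.17 for 5-hydroxyisourate hydrolase and 1.28 for allantoicase under PCB180. In these 4 genes the estimate under PCB153 was above the limit for PCB180. In the reverse case, ureidoglycine aminohydrolase under PCB153 can have had at most 1.05, below its 1.38 under PCB180. The lower bound of the 95% interval under PCB153 was 1.43 for uricase, 1.03 for adenine deaminase, 0.79 for the hydrolase and 0.998 for allantoicase, each below the limit for PCB180 at the highest ratio. At the median ratio the limit for uricase was 1.41, just under its lower bound, and the limits of the other 3 genes (1.63, 1.14 and 1.25, in the same order) stayed above theirs. Being listed for one congener and not for the other is therefore no test of a difference between them, and these limits are not one either.

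The authors' direct comparison of PCB180 with PCB153 at 96 h, as used here, held 1 gene of 11313 tested (0.00884%), and it was none of the 6. That gene had a log2 fold change of 0.86 in the authors' deposited table, under the size of 1 met by the genes of the other comparisons. The sources used here do not state which thresholds put a gene in the direct comparison, so what the absence of the 6 genes there means in terms of p and fold change is not known. Absence from it does not show that the 2 congeners act alike, and no interval of the direct difference was used here.

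Neither PCB52 nor PCB101 had any of the 6 genes listed at 96 h. Few genes of any kind were listed for these congeners, 0.00884% of 11313 for PCB52 and 0.0796% for PCB101, which makes the score needed for listing high. Uricase could have had an absolute log2 fold change of up to 1.97 under PCB101 and 2.19 under PCB52 without being listed. Across the 6 genes the limits ran from 1.38 to 2.27 for PCB101 and from 1.54 to 2.53 for PCB52. Under PCB101, the rise listed for PCB153 exceeded the limit in uricase and in allantoicase (limit 1.74), and under PCB52 in uricase alone. A rise the size of that under PCB153 could thus have gone unlisted in adenine deaminase, the hydrolase and the decarboxylase under both congeners, and in allantoicase under PCB52. At 24 h none of the 6 was listed for PCB52 (0.00884% of 11313 genes listed), PCB153 (0.053%) or PCB180 (0.0177%), and no rows for PCB101 at 24 h were used. No gene listed at 24 h was also listed for both PCB153 and PCB180 at 96 h. No limit was set for the earlier hour, and a change between the hours was not tested.

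**Figure D2:**
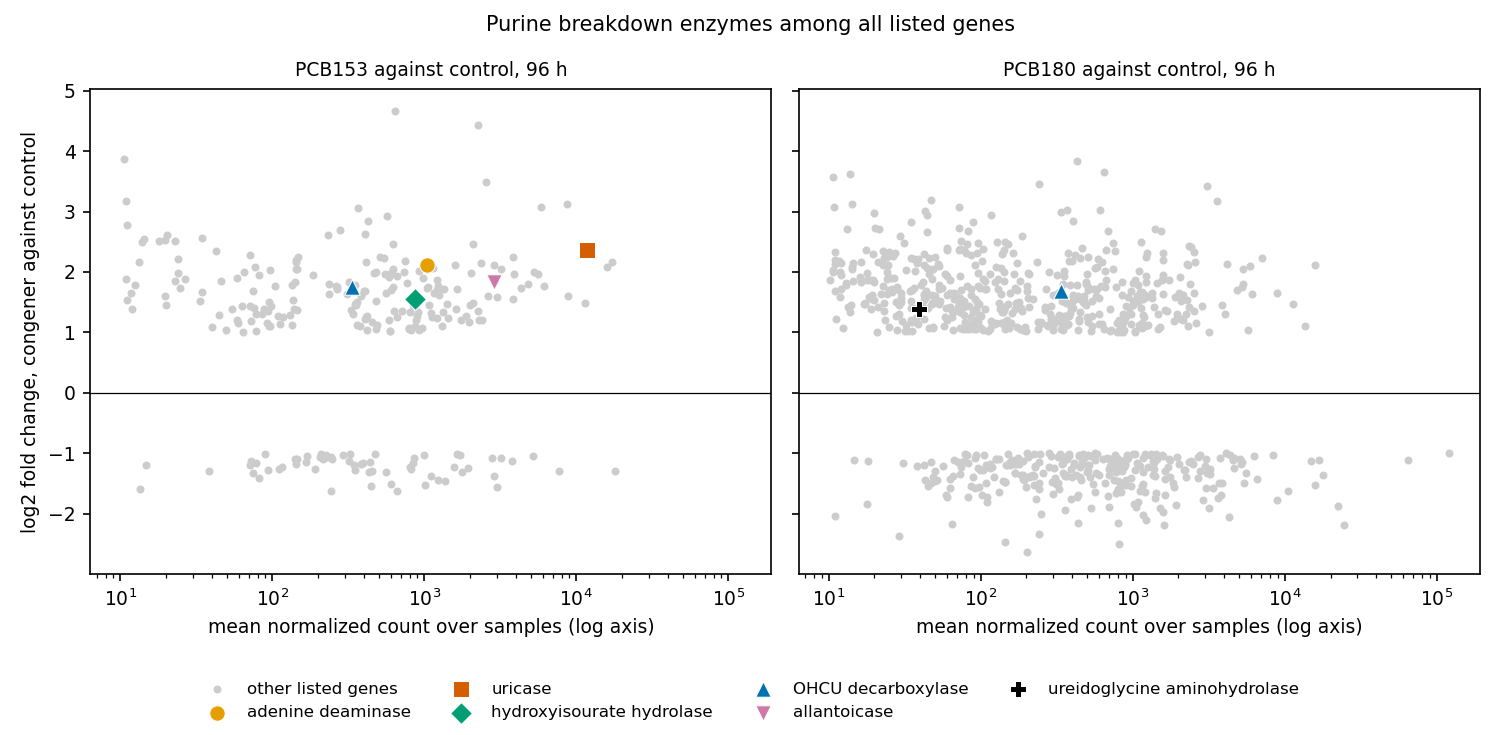
Log2 fold change against control (vertical axis) and mean normalized count over samples (horizontal log axis) of every gene listed for PCB153 (left) and PCB180 (right) at 96 h. Coloured symbols are the purine breakdown enzymes, which lie among the other genes that rose and reach from a mean normalized count of 39.3 to one of 11677.

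The 6 genes lie on 6 different contigs by their identifiers, which are made of a contig and a running number of the gene. None has another listed gene at the directly neighbouring gene number. The nearest listed gene was between 2 and 28 gene numbers away. The closest was a glutamate decarboxylase (ptg000002l.381), which makes 4-aminobutyrate from glutamate, 2 numbers from adenine deaminase. It fell under PCB180, with a log2 fold change of -1.04 ± 0.35 in the authors' deposited table. Next to ureidoglycine aminohydrolase, 4 numbers away, a Zn(2)-C6 domain protein (ptg000017l.119) of a fungal transcription factor family had -1.19 ± 0.32 under PCB153 and -1.04 ± 0.34 under PCB180 in the authors' deposited table. Near uricase, a mitochondrial import subunit (ptg000009l.107) rose by 1.87 ± 0.50 under PCB153 and 1.83 ± 0.52 under PCB180 in the authors' deposited table. Near the decarboxylase, isovaleryl-CoA dehydrogenase (ptg000016l.134) rose by 1.51 ± 0.35 under PCB180 in the authors' deposited table. Of the 6 nearest listed genes, 2 rose and 4 fell in the comparisons that list them. Over all listed genes, 198 rose and 63 fell for PCB153, and 519 rose and 302 fell for PCB180. No genome was used, so distances in bases are not given, and no sequence of these genes was used here.

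The other steps of the route were looked for by name among the 705 annotated listed genes. None was named as xanthine dehydrogenase itself, allantoinase, ureidoglycolate lyase, urease, guanine deaminase or a purine permease. A further 215 listed genes carry no annotation. The list of purine breakdown words matched 1 gene beyond the 6, molybdopterin synthase catalytic subunit (ptg000012l.314), through a synonym that mentions xanthine dehydrogenase. Molybdopterin synthase makes the cofactor that xanthine dehydrogenase and nitrate reductase need. In the authors' deposited table it rose under both congeners, with a log2 fold change of 1.73 ± 0.53 (adjusted p = 0.0378) for PCB153 and 1.87 ± 0.56 (adjusted p = 0.0161) for PCB180. With it, 6 genes of this list rose under PCB153 and 3 under PCB180, and 0 fell. Of the 7 genes of the list, 6 are the members themselves, and only listed genes could match. Nothing is read from these counts.

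Urea carboxylase (ptg000006l.174), which starts the breakdown of urea in fungi that do so without urease, was chosen after its values were seen. It fell under PCB180, with a log2 fold change of -1.27 ± 0.29 and adjusted p = 0.000991 in the authors' deposited table, and it was not listed for PCB153. Allantoicase, the gene of the 6 that yields urea, was listed for PCB153 and not for PCB180, where its limit was 1.28. No limit was set for urea carboxylase under PCB153. A contrast of the 2 genes between the congeners was not tested.

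The list of nucleobase and nucleoside transport and salvage matched 3 listed genes, and 1 of them acts in the breakdown of purine nucleotides. IMP-specific 5'-nucleotidase (ptg000008l.378), which turns inosine monophosphate into inosine upstream of hypoxanthine, rose under PCB153 with a log2 fold change of 1.20 ± 0.38 (adjusted p = 0.0456 in the authors' deposited table). ATP phosphoribosyltransferase (ptg000006l.185), the first enzyme of histidine synthesis, rose under PCB153 with 2.23 ± 0.63 on the same scale in the authors' deposited table. Nicotinate phosphoribosyltransferase (ptg000007l.277), an enzyme of NAD salvage, had -1.05 ± 0.33 for PCB180 in the authors' deposited table. The latter 2 matched by the word phosphoribosyltransferase and do not belong to purine salvage. The list of purine and pyrimidine synthesis, whose wording as used did not take in these 2 transferases, matched 0 listed genes.

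Listed nitrogen genes in the wider sense went in both directions, as did the listed genes at large. In the list of nitrogen assimilation and control, 3 genes rose and 1 fell under PCB153, and 6 rose and 4 fell under PCB180. Over all listed genes, 198 rose and 63 fell for PCB153, and 519 rose and 302 fell for PCB180. The directions are therefore not read as a trait of this list. Molybdopterin synthase, which rose under both congeners, is counted here too. The median log2 fold change of the list was 1.47 for PCB153 and 1.08 for PCB180, beside 1.44 and 1.23 over all listed genes of these comparisons. Aspartate aminotransferase (ptg000027l.191), which moves amino groups between aspartate and glutamate, had log2 fold changes of 1.99 ± 0.47 for PCB153 and 3.02 ± 0.49 for PCB180 in the authors' deposited table. An amidase domain protein (ptg000010l.455), also annotated as a myosin, rose by 2.02 ± 0.47 and a nitrilase (ptg000003l.325) by 1.51 ± 0.28 under PCB180, by the authors' deposited table. A class I/II aminotransferase (ptg000016l.688) fell under both, at -1.33 ± 0.32 for PCB153 and -1.23 ± 0.34 for PCB180 in the authors' deposited table. An aminotransferase of 4-aminobutyrate (ptg000006l.412) was listed for PCB153 with 1.20 ± 0.30 in the authors' deposited table. Nitrate reductase (ptg000009l.864), named after its values were seen because it uses the same cofactor as xanthine dehydrogenase, rose by 1.12 ± 0.30 under PCB180 in the authors' deposited table.

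Uricase makes hydrogen peroxide. The list of peroxide handling and peroxisome genes had 0 listed genes under PCB153, beside 1.82% risen and 0.579% fallen over all genes tested. How many genes of this list were tested is not known, so nothing is read from its counts. Under PCB180, with 4.59% of all genes tested listed as risen and 2.67% as fallen, it had 2. A catalase domain protein (ptg000019l.156), of the family that breaks down hydrogen peroxide, rose with a log2 fold change of 1.77 ± 0.56, and a gene annotated as peroxin-10 (ptg000015l.217), a ubiquitin ligase of the peroxisome, fell, with one of -1.27 ± 0.45, by the authors' deposited table.

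**Figure D3:**
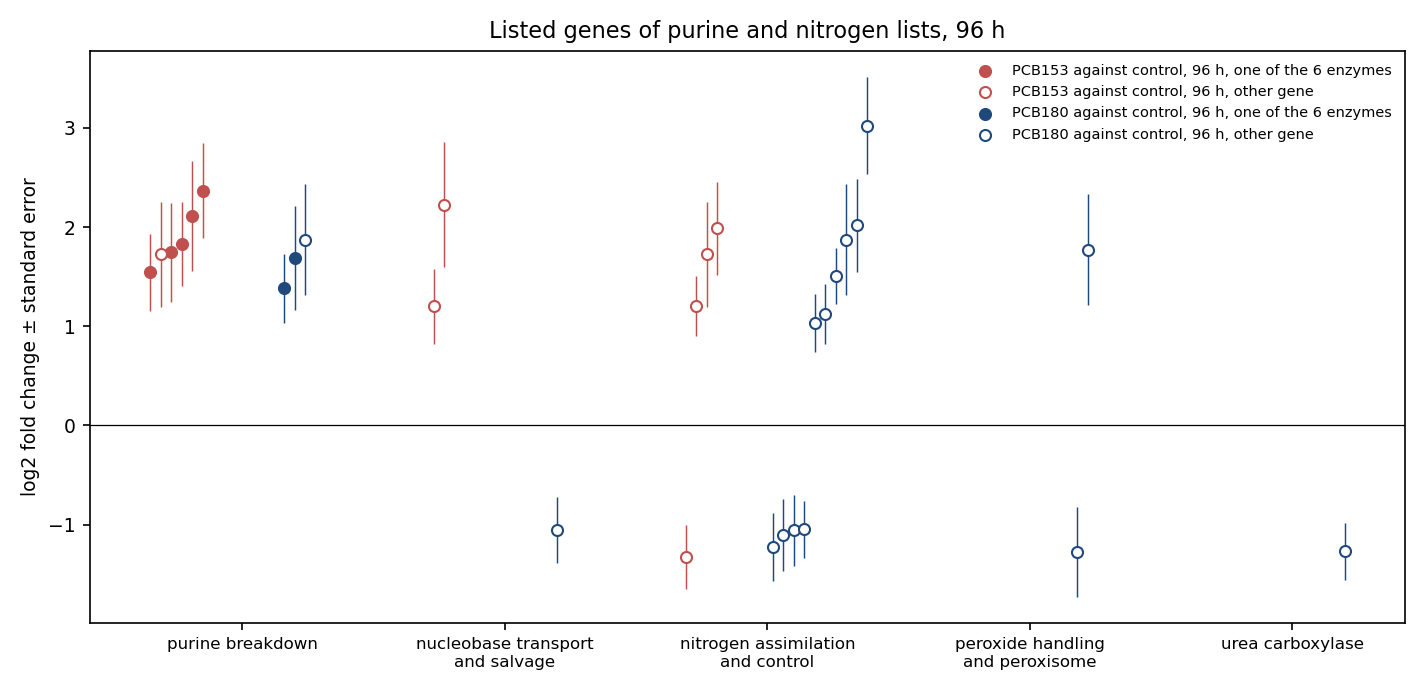
Log2 fold change with its standard error (vertical axis) of the listed genes in each functional list at 96 h, for PCB153 (red) and PCB180 (blue). Filled symbols are the 6 purine breakdown enzymes, all above 0. Open symbols are other genes, which lie on both sides of 0 in the nucleobase, nitrogen and peroxide lists. Urea carboxylase lies below 0, and molybdopterin synthase appears in 2 lists.

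The OHCU decarboxylase domain protein is the one enzyme with a listed value under both congeners, so genes of like response could be sought for it. By the distance between pairs of log2 fold changes over 2 comparisons, among 171 genes listed in both, the nearest was a protein with an ACB domain (ptg000017l.201), a domain that binds acyl-CoA. Its log2 fold changes were 1.76 ± 0.53 for PCB153 and 1.64 ± 0.55 for PCB180 in the authors' deposited table. The next were a gene without annotation (ptg000006l.327, 1.80 and 1.70), ribosomal protein uS13 (ptg000015l.361, 1.81 and 1.74) and the protein CMS1 (ptg000012l.393, 1.69 and 1.62), where the authors' deposited table gives the first value for PCB153 and the second for PCB180. All 4 differed from the decarboxylase by less than its standard errors. This follows from picking the nearest genes, so nothing is read from it.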

How the data were processed

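The labels' protocols name TRIzol for the RNA extraction and a polyA method for the libraries. Which aligner, counter, genome build, annotation and test program were used is not given in the sources used here. Per the file headers, the authors deposited these values for every listed gene of a comparison: the log2 fold change, the standard error of it (log2), a test score, p-values before and after adjustment, and the mean normalized count (a signal, 0 or more). In all 1102 deposited rows the score was the ratio of log2 fold change to standard error, and the p-value followed from the score by a two-sided normal test. A second deposited table adds annotation with values rounded to 2 decimals. No columns of single samples were used, so no new test was made.

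From these, 95% normal intervals, the number of genes tested (the whole number that turns ratios of p to adjusted p into ranks, tolerance 0.0001, checked on simulated data) and limits for unlisted genes were computed (Python 3.11.15, scipy 1.17.1, pandas 2.3.3). The members and lists were chosen with earlier results of these data known. Named were all 6 members, other genes of the purine and nucleobase lists, up to 6 genes per further list by absolute log2 fold change, and 4 nearest genes. Alternatives were stricter thresholds on adjusted p or fold change, a filter on low counts, Bonferroni adjustment, the annotated table, interval bounds and other list wording.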

Additional observations from a re-analysis of the deposited data

How the results depend on the processing

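The alternatives could not turn the sign of a listed value, so they bear on counts and sizes alone. They only drop genes, round values, take a bound or change which genes a list holds. Of the 5 genes listed for PCB153, 3 had an adjusted p under 0.01, 1 under 0.001, 1 after Bonferroni adjustment (uricase in both cases) and 2 a log2 fold change of at least 2. Of the 2 for PCB180, 1 had an adjusted p under 0.01, 1 a log2 fold change of at least 1.5, 1 was left after the 25% of listed genes with the lowest mean normalized count were removed, and 0 were left at an adjusted p under 0.001, at a log2 fold change of at least 2 or after Bonferroni adjustment. Taking the interval bound nearest to 0, the median log2 fold change was 0.998 for PCB153 and 0.68 for PCB180. In the purine breakdown list, 3 risen genes for PCB153 and 1 for PCB180 had an adjusted p under 0.01, and 2 and 0 a log2 fold change of at least 2. Adding urea carboxylase, a choice made after seeing the data, gave 1 gene that fell for PCB180. In the nucleobase list, 0 genes for either congener had an adjusted p under 0.01, and 1 for PCB153 and 0 for PCB180 a log2 fold change of at least 2. In the nitrogen list, an adjusted p under 0.01 left 2 genes that rose and 1 that fell for PCB153 and 4 that rose and 2 that fell for PCB180, and a log2 fold change of at least 2 left 0 for PCB153 and 2 that rose and 0 that fell for PCB180. In the peroxide list, 0 were left in either direction by both stricter thresholds. These counts shrink because the stricter thresholds and filters take genes away by construction.

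No paired analysis was possible because the files hold comparisons and no values per sample, so leaving out single replicates was not run either. The depth behind each value is unknown.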
